A study of Mus musculus with 6 samples.

Results

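The genes described are Trp53, which encodes the transcription factor p53, and 9 of its direct targets, Cdkn1a, Mdm2, Ccng1, Bbc3, Bax, Trp53inp1, Sesn2, Eda2r and Phlda3. They were chosen by symbol, and all 10 were found among the 28584 gene symbols of the expression table. RNA was sequenced from mouse embryonic stem cells (mESCs) of 1 line, derived from a C57BL/6 × 129S6 blastocyst and grown on mitomycin C-inactivated mouse embryonic fibroblast (MEF) feeders with serum and LIF for the first 5 passages, then moved to the test media and sampled 10 passages later (P10). LIF-ESCs received the cytokine LIF at 1000 U/mL. OSM-ESCs received oncostatin M (OSM), a cytokine of the same family, at 10 ng/mL in place of LIF. -LIF-ESCs received neither cytokine. All 3 groups shared the basic medium with 20% fetal bovine serum and carried no introduced allele, and each group had 2 libraries of poly-A RNA with 20712941 to 28994417 recovered reads. Values are TPM, reads divided by gene length and scaled to the same total in every library, so that levels of different genes can be compared.

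p53 is held at a low level by Mdm2, a ubiquitin ligase that marks it for destruction and whose own gene p53 switches on. After DNA damage or other stress p53 is freed from this loop and raises genes that halt the cell cycle (Cdkn1a), trigger apoptosis (Bax, Bbc3) or restrain growth signalling (Sesn2, Phlda3). Mouse ESCs are known for a large store of p53, and p53 is known to repress the pluripotency gene Nanog after DNA damage.

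p53 binds DNA at response elements, which are built of a pair of decamers, each with 3 purines, a C, 2 letters that are A or T, a G and 3 pyrimidines. RefSeq promoter windows (GRCm38.p6, 250 bases before to 50 bases after each start of transcription) were found for 9 of the 10 genes and hold 12 starts. Trp53inp1 was the gene with no window. An exact decamer stood in 5 of these 12 windows, 1 each for 5 of the 9 genes, and in 8.36% of all 32851 windows. The decamer reads alike on both strands. The stretches with a match to the decamer are shown, with every matched decamer in capitals and 10 bases on each side. The Cdkn1a stretch lies on the plus strand of chr17:29090896-29090957, Ccng1 on the minus strand of chr11:40755452-40755491, Bax on the minus strand of chr7:45467080-45467109, Mdm2 on the minus strand of chr10:117710925-117710954 and Trp53 on the plus strand of chr11:69580274-69580303.
Cdkn1a: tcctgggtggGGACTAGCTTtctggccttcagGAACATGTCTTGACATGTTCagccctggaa
Ccng1: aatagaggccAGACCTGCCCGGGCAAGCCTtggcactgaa
Bax: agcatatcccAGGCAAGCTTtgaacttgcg
Mdm2: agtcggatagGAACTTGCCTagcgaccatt
Trp53: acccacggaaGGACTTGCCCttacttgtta
The Cdkn1a stretch held 3 decamers, which began 73, 51 and 41 bases before the upstream start of the gene, and the last of them was 1 letter off. This start lies 2790 bases before the other RefSeq start of Cdkn1a, whose window held no match. In Ccng1 a decamer 1 letter off, 195 bases before the start, touched an exact decamer 185 bases before it. A pair of decamers at most 13 bases apart with at most 1 letter off in all was found in the windows of these 2 genes, and in 0.627% of all windows. In Bax, Mdm2 and Trp53 the single decamer began 201, 186 and 75 bases before the start. A match is a description of letters and not of binding, and known response elements outside these windows were not searched here.

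All 10 genes were well expressed. Eda2r, a receptor of the TNF receptor family that binds ectodysplasin A2, had the lowest level, with a mean over the 6 libraries above that of 71.5% of the 18556 genes tested, and Bax the highest, above 97.6%. In -LIF-ESCs, Ccng1, the gene of cyclin G1, was highest at 283 ± 7.17 TPM (SD, n = 2), followed by Bax at 185 ± 5.18. In LIF-ESCs and OSM-ESCs, Bax was highest at 317 ± 14.5 and 352 ± 8.77 TPM. The rank of Sesn2 among the 10 was 9 without cytokine, 2 with LIF and 3 with OSM, where its libraries overlapped those of Ccng1 and Cdkn1a. The other neighbours in the order whose libraries overlapped were Phlda3 and Trp53 in -LIF-ESCs, Ccng1 and Trp53 in LIF-ESCs, and Mdm2 and Phlda3 in OSM-ESCs. The plot of TPM by library shows every value.

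**Figure D1:**
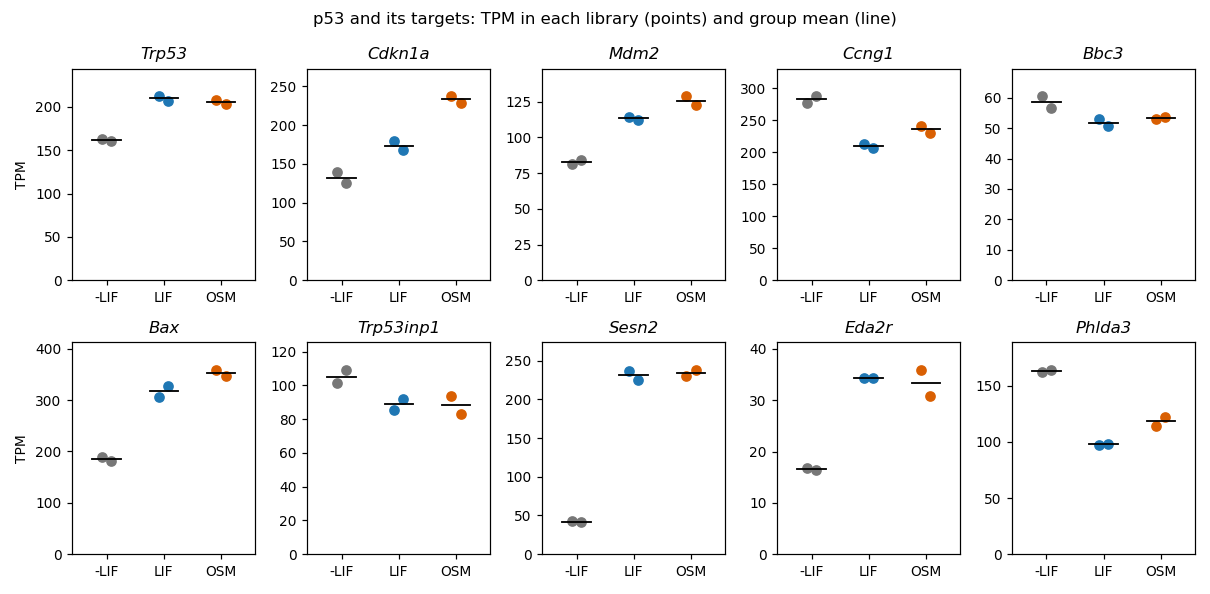
TPM (y axis, from 0) of each gene in the 2 libraries of each medium (x axis), with points for libraries and a line for the group mean. Sesn2 rose from 41.4 and 42.6 TPM in -LIF-ESCs to between 225 and 238 TPM in the other 4 libraries, whereas Ccng1 and Phlda3 were highest in -LIF-ESCs.

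Against -LIF-ESCs, the comparison asks which of the genes differed in level between cells grown with and without a cytokine. The paper reports only differentiated colonies of large, flat cells in -LIF-ESCs. A direct effect of a cytokine and a change of cell state therefore cannot be told apart here. Trp53 and its targets did not move as 1 block. In LIF-ESCs 6 of the 10 genes were higher (Trp53, Cdkn1a, Mdm2, Bax, Sesn2 and Eda2r) and 4 were lower (Ccng1, Bbc3, Trp53inp1 and Phlda3) by limma with an adjusted p under 0.05. Of all genes tested, 42.2% were higher and 25.9% lower by the same rule. In OSM-ESCs the same 6 were higher and 3 lower, with Bbc3 not past the test, against 42.9% higher and 25.4% lower of all genes. With a log2 fold change of at least 1 as well, LIF-ESCs had 2 genes called higher (Sesn2 and Eda2r) and OSM-ESCs 1 (Sesn2), against 13.3% and 14.2% of all genes. The median log2 fold change of the 10 genes was 0.38 with LIF and 0.47 with OSM, beside 0.17 and 0.18 over all genes tested. After rescaling of the libraries by the median ratio, which brought the median of all genes to 0.02 in both, the split was 6 higher and 4 lower in both groups, against 34.5% and 33% of all genes with LIF and 34.4% and 32.9% with OSM. Both comparisons use the libraries of -LIF-ESCs. In bulk RNA fewer cells of a type and less RNA per cell cannot be told apart.

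**Figure D2:**
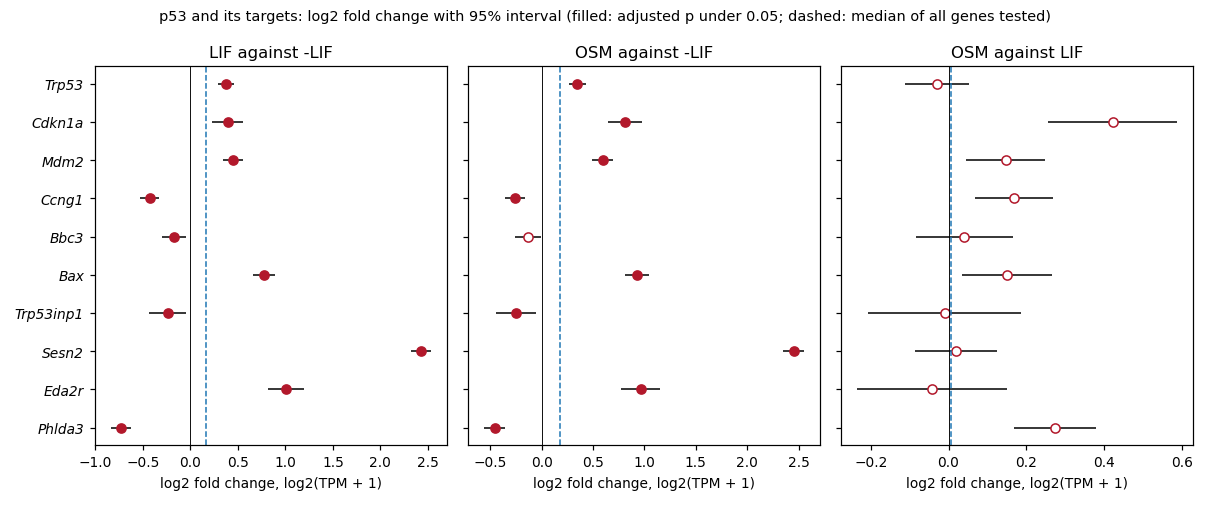
Log2 fold change on the log2(TPM + 1) scale (x axis, with a range of its own in each panel) of each gene in the 3 comparisons, with its 95% interval from limma, filled where the adjusted p was under 0.05. The dashed line is the median of all genes tested, at 0.17, 0.18 and 0.01. Sesn2 stands apart at 2.43 and 2.45 against -LIF-ESCs, and Cdkn1a lies farthest to the right between OSM-ESCs and LIF-ESCs at 0.42.

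Trp53 itself (GRCm38, chromosome 11, 69580359 to 69591873) was at 163 and 160 TPM in -LIF-ESCs, 212 and 207 TPM in LIF-ESCs and 208 and 203 TPM in OSM-ESCs. Both cytokine groups lay above -LIF-ESCs with no overlap, and they overlapped each other. By limma, the log2 fold change with LIF was 0.38 (standard error 0.03, adjusted p = 0.000281) and that with OSM 0.35 (adjusted p = 0.000376). After rescaling by the median ratio these values were 0.20 and 0.16, and both were still past the test. The transcript says nothing of the level of p53 protein, which is set largely by Mdm2.

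Mdm2, on chromosome 10 from 117688875 to 117710758, closes the feedback loop on p53. It was at 81.7 and 83.8 TPM in -LIF-ESCs, 114 and 112 TPM in LIF-ESCs and 129 and 122 TPM in OSM-ESCs. The 3 groups did not overlap, with OSM-ESCs highest. Relative to the cells without cytokine, the log2 fold change with LIF was 0.45 (standard error 0.04, limma, adjusted p = 0.000324) and that with OSM 0.60 (adjusted p = 0.000114). After rescaling by the median ratio these values were 0.28 and 0.41, both past the test.

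Cdkn1a encodes p21, the inhibitor of cyclin-dependent kinases through which p53 halts the cycle. It lies on chromosome 17 from 29090976 to 29100727. Its level was 140 and 125 TPM in -LIF-ESCs, 179 and 168 TPM in LIF-ESCs and 237 and 229 TPM in OSM-ESCs. The libraries of the 3 groups did not overlap, with -LIF-ESCs lowest and OSM-ESCs highest. LIF gave a log2 fold change of 0.39 (standard error 0.07, limma, adjusted p = 0.00355) and OSM 0.81 (adjusted p = 0.000217), each relative to -LIF-ESCs. The rescaled values were 0.22 and 0.63, both past the test. A gene model on the opposite strand, not analysed here, shares 7.68% of the exon bases of Cdkn1a, and the strand setting of the read counting is not given in the sources used here.

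Ccng1 binds Mdm2 and the phosphatase PP2A and moved the other way. On chromosome 11 from 40748552 to 40755311, it was at 278 and 288 TPM in -LIF-ESCs, 213 and 207 TPM in LIF-ESCs and 242 and 230 TPM in OSM-ESCs. Again no libraries of different groups overlapped, but here -LIF-ESCs were highest and LIF-ESCs lowest. With LIF the log2 fold change was -0.43 (limma, adjusted p = 0.000381), with OSM -0.26 (adjusted p = 0.00254). Rescaling moved them to -0.60 and -0.45. Of the 2 genes with paired decamers in their promoter windows, Cdkn1a was thus higher and Ccng1 lower than in -LIF-ESCs.

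The apoptosis genes differed. Bax encodes the effector that opens the outer mitochondrial membrane, and Bbc3 encodes Puma, a BH3-only protein that frees such effectors. Bax, on chromosome 7 from 45461697 to 45466898, was at 189 and 181 TPM in -LIF-ESCs, 307 and 327 TPM in LIF-ESCs and 358 and 346 TPM in OSM-ESCs. The groups did not overlap, and OSM-ESCs were highest. In log2 terms Bax rose by 0.77 with LIF (limma, adjusted p = 7.29e-05) and by 0.92 with OSM (adjusted p = 4.03e-05). The gene model Gm45808, on the same strand, shares 12.2% of the exon bases of Bax and was itself at 220 and 212, 381 and 416, and 433 and 453 TPM in the 3 groups, so reads of this overlap are uncertain. Gm45808 is named here for the overlap, after its values were seen.

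Bbc3, on chromosome 7 from 16308393 to 16318205, was at 60.5 and 56.5 TPM in -LIF-ESCs, 52.9 and 50.6 TPM in LIF-ESCs and 52.8 and 53.7 TPM in OSM-ESCs. Every library with a cytokine was below both -LIF-ESC libraries, by a small margin. LIF gave a log2 fold change of -0.17 (standard error 0.05, limma, adjusted p = 0.0257) and OSM -0.13 (adjusted p = 0.0602). The call in LIF-ESCs was lost without -LIF replicate 1 (adjusted p = 0.106), LIF replicate 1 (0.0507) or LIF replicate 2 (0.123), and OSM-ESCs passed without -LIF replicate 2 (0.0418). Bbc3 passed in both groups after rescaling by the median ratio, with log2 fold changes of -0.34 and -0.32, and with voom, whereas without a trend in eBayes it passed in neither (0.0571 with LIF).

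Trp53inp1 encodes a nuclear protein that acts with p53 in apoptosis and in autophagy. It lies on chromosome 4 from 11156431 to 11174379. Its level was 101 and 109 TPM in -LIF-ESCs, 85.7 and 92.1 TPM in LIF-ESCs and 94.0 and 82.8 TPM in OSM-ESCs. The libraries of the cytokine groups overlapped each other and lay under those of -LIF-ESCs. By limma, the log2 fold change with LIF was -0.24 (standard error 0.08, adjusted p = 0.0383) and that with OSM -0.25 (adjusted p = 0.0333). These calls were lost in LIF-ESCs without any 1 of the 4 libraries compared (adjusted p = 0.0616 and 0.170 without -LIF replicates 1 and 2, 0.167 and 0.0620 without LIF replicates 1 and 2). In OSM-ESCs they were lost without -LIF replicate 1 (0.0561), -LIF replicate 2 (0.153) or OSM replicate 2 (log2 fold change -0.16, adjusted p = 0.129). They were also lost with the replicate block (0.0669 with LIF and 0.0595 with OSM), without a trend (0.0688 and 0.0612) and, with LIF, without the filter (0.0532). Rescaling moved the values to -0.41 and -0.44, past the test, as did voom (-0.37 and -0.39). The direction was the same in the alternatives that could change it (a pseudocount of 0.1, rescaling, voom and leaving out a compared library).

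Sesn2 encodes Sestrin 2, a leucine sensor that restrains the growth kinase mTORC1 and is also induced by Atf4 in the integrated stress response. On chromosome 4 from 132492032 to 132510501, it was at 42.6 and 41.4 TPM in -LIF-ESCs, 237 and 225 TPM in LIF-ESCs and 230 and 238 TPM in OSM-ESCs. Both cytokine groups overlapped each other and were 5.50-fold and 5.58-fold above -LIF-ESCs. On the log2 scale these differences were 2.43 (standard error 0.04, limma, adjusted p = 2.96e-06) and 2.45 (adjusted p = 2.61e-06). Of all genes tested, 1.6% and 1.85% had a higher log2 fold change. Its promoter window held no exact p53 decamer.

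Eda2r, on chromosome X from 97333840 to 97377216, was at 16.8 and 16.4 TPM in -LIF-ESCs, 34.3 and 34.4 TPM in LIF-ESCs and 35.9 and 30.9 TPM in OSM-ESCs. The level without cytokine was the lower in every library, and the OSM-ESC libraries lay on either side of the LIF-ESC libraries. LIF gave a log2 fold change of 1.01 (standard error 0.08, limma, adjusted p = 0.000176) and OSM 0.96 (adjusted p = 0.000205). The limit of 1 on the log2 scale falls between these values. Without -LIF replicate 2 the value in LIF-ESCs was 0.99, and without OSM replicate 2 that in OSM-ESCs was 1.07, which exchanged the sides of the limit, and after rescaling by the median ratio they were 0.84 and 0.78.

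Phlda3, on chromosome 1 from 135766119 to 135769136, encodes a small protein with a pleckstrin homology domain that keeps the kinase Akt from the membrane. It was at 162 and 164 TPM in -LIF-ESCs, 97.0 and 98.6 TPM in LIF-ESCs and 115 and 122 TPM in OSM-ESCs. The groups did not overlap, and -LIF-ESCs were highest and LIF-ESCs lowest, the same order as in Ccng1. Phlda3 fell by 0.73 on the log2 scale with LIF (standard error 0.04, limma, adjusted p = 6.62e-05) and by 0.46 with OSM (adjusted p = 0.000341).

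Between OSM-ESCs and LIF-ESCs, the question is whether the cytokines differ from each other. Of the 10 genes, 0 passed an adjusted p under 0.05 in limma on log2(TPM + 1), a test that called 0.463% of all genes higher and 0.129% lower. At an unadjusted p under 0.05, 5 were higher in OSM-ESCs (Cdkn1a, Phlda3, Ccng1, Mdm2 and Bax) and 0 lower, against 9.8% and 5.5% of all genes tested. With limma's voom on the recovered reads, the same 5 genes were higher and 0 lower at an adjusted p under 0.05, against 5.26% and 2.56% of all genes. Their log2 fold changes with voom were near those of the main fit. The degrees of freedom with the prior were 22.9 with voom and 5.3 in the main fit, from the same libraries, so voom adds no replicates. In the main fit the median log2 fold change of the 10 genes was 0.09, beside 0.01 over all genes.

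Cdkn1a had the largest value of the 10, with 233 ± 5.90 TPM (SD, n = 2) in OSM-ESCs against 174 ± 8.08 in LIF-ESCs, a ratio of 1.34. Its log2 fold change was 0.42 (95% interval 0.26 to 0.59, adjusted p = 0.0745 in limma), and with voom 0.42 (adjusted p = 1.87e-07). Phlda3 had a log2 fold change of 0.27 (0.17 to 0.38, adjusted p = 0.0713 in limma and 0.00158 with voom). Ccng1, Bax and Mdm2 had log2 fold changes of 0.17, 0.15 and 0.15, with adjusted p-values of 0.162, 0.229 and 0.197 in limma and of 0.00127, 0.0151 and 0.00711 with voom. Outside voom, the adjusted p over the alternatives was at lowest 0.0531 for Cdkn1a, 0.0551 for Phlda3 and 0.132 for Ccng1, and it reached 0.544 for Bax. For these 5 genes no OSM-ESC library overlapped a LIF-ESC library. They were picked by an unadjusted p from the same libraries, so this separation adds no support. The share of all genes that separate in this way was not computed.

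For the other 5 genes the intervals of the difference between OSM-ESCs and LIF-ESCs included 0. The log2 fold change of Trp53 was -0.03 (95% interval -0.11 to 0.05), of Sesn2 0.02 (-0.09 to 0.13) and of Bbc3 0.04 (-0.08 to 0.17). The widest intervals were those of Trp53inp1 (-0.21 to 0.19) and Eda2r (-0.24 to 0.15). Counting alone gave a standard error of 0.0157 to 0.0431 on the log2 ratio of the 10 genes in this comparison, and the fitted standard errors were 0.03 to 0.08.

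Markers of other cell types moved with these comparisons. Feeders are fibroblasts, and of 17 fibroblast markers tested (18 listed), 16 were higher and 1 lower with either cytokine than without. The median log2 fold change of the 17 was 2.62 with LIF and 3.06 with OSM. The summed level of the 18 markers was 331 to 339 TPM in -LIF-ESCs, 929 to 934 TPM in LIF-ESCs and 1216 to 1233 TPM in OSM-ESCs, and 1 of them was at 0 in both -LIF-ESC libraries. Fn1 alone, named after its values were seen, held on average 238 TPM of this sum in -LIF-ESCs, 380 TPM in LIF-ESCs and 454 TPM in OSM-ESCs. Between OSM-ESCs and LIF-ESCs the summed level had a ratio of 1.31. At an adjusted p under 0.05 in limma, 6 markers were higher and 0 lower, against 0.463% and 0.129% of all genes. The median log2 fold change of the markers was 0.43. Cdkn1a was at 0.42 in this comparison, and the others of the 10 p53 genes lay between -0.04 and 0.27. Against -LIF-ESCs Cdkn1a was at 0.39 with LIF and 0.81 with OSM, far under the marker medians. The part of fibroblast RNA in the p53 genes was not tested.

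The 12 pluripotency markers were expressed in every library, with a summed level of 5568 to 5586 TPM in -LIF-ESCs, 7867 to 7921 TPM in LIF-ESCs and 7269 to 7304 TPM in OSM-ESCs, of which Dppa5a alone, chosen after its values were seen, held 2942, 3060 and 2901 TPM. With either cytokine 10 of the 12 were higher than without and 1, Nanog, was lower. Nanog was at 433 TPM in -LIF-ESCs, 290 TPM in LIF-ESCs and 261 TPM in OSM-ESCs. Its log2 fold changes were -0.58 with LIF and -0.73 with OSM (limma, adjusted p = 0.000144 and 6.37e-05). The paper instead reports Nanog RNA as higher in both cytokine groups than in -LIF-ESCs, and its protein as lower without cytokine. The source of this difference was not tested, nor was a part of p53 in the level of Nanog. Between the cytokines 1 marker, Nr0b1, passed and was lower with OSM (-0.28, adjusted p = 0.0463), and 10 were lower at an unadjusted p under 0.05. The 9 markers of simple epithelium and trophectoderm that were tested, keratins among them, were all lower in both cytokine groups, from 2358 to 2378 TPM in sum in -LIF-ESCs to 37.5 to 39.3 TPM in LIF-ESCs and 48.7 to 53.7 TPM in OSM-ESCs. The 10 primitive endoderm markers summed to 88.3 to 91.1 TPM in -LIF-ESCs, 136 to 139 TPM in LIF-ESCs and 136 to 137 TPM in OSM-ESCs. Of these, 1 was at 0 in both libraries of each cytokine group. Lamb1 and Col4a1, named after their values were seen, held 50.2 and 29.4 TPM of this sum in -LIF-ESCs. They held 55.8 and 52.8 TPM in LIF-ESCs and 61.2 and 52.7 TPM in OSM-ESCs. Of the 8 tested, 8 were higher with LIF and 6 with OSM (42.2% and 42.9% of all genes), and 0 lower. Between the cytokines 0 of the 8 passed an adjusted p under 0.05 in limma. At an unadjusted p under 0.05, 1 was higher and 3 lower in OSM-ESCs, against 9.8% and 5.5% of all genes. The part of these cell types in the p53 genes was not tested.

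**Figure D3:**
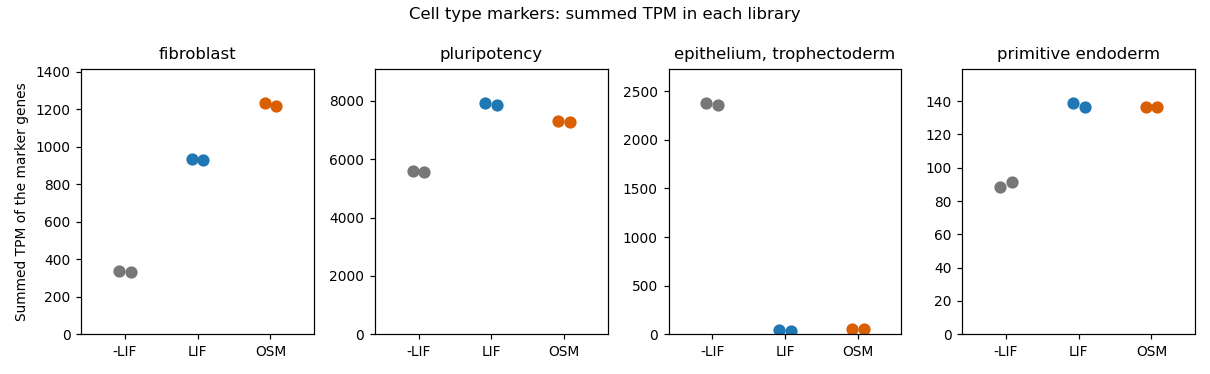
Summed TPM (y axis, from 0) of the marker genes of 4 cell types in each library, by medium (x axis). Fibroblast markers summed to at most 339 TPM in -LIF-ESCs and at least 1216 TPM in OSM-ESCs, whereas simple epithelium and trophectoderm markers summed to at least 2358 TPM and at most 53.7 TPM.

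Over the further p53 targets and regulators, 25 of the 45 genes tested were higher and 13 lower with LIF, and 26 and 12 with OSM. Of all genes tested, 42.2% were higher and 25.9% lower with LIF and 42.9% and 25.4% with OSM, and the counts of the single lists that follow stand beside these shares, with nothing particular to a list read from them. Of 10 targets with roles in arrest and growth, 6 were higher and 3 lower with either cytokine than without (limma, adjusted p under 0.05), and after rescaling 5 and 3 with LIF. The highest log2 fold changes in LIF-ESCs were those of Gdf15, a secreted stress hormone of the TGF-beta family (2.30), Gadd45a, a growth arrest protein (2.11), and Plk3, a stress-activated polo-like kinase (1.48). The lowest were those of Btg2, an antiproliferative cofactor (-1.71), Sesn1, the sister gene of Sesn2 (-1.15), and Ddit4, an inhibitor of mTORC1 (-0.77). In OSM-ESCs these values were 2.31, 2.11 and 1.47, and -1.68, -1.27 and -1.08. Sesn2 at 231 TPM and Sesn1 at 4.17 TPM in LIF-ESCs thus differed in direction as well as in level, since Sesn1 was at 10.4 TPM in -LIF-ESCs.

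Of 3 targets in DNA repair and nucleotide supply, 2 were higher and 1 lower in both groups, and after rescaling 1 was higher and 1 lower in LIF-ESCs. Rrm2b, a subunit of ribonucleotide reductase, had log2 fold changes of 0.58 and 0.62 in LIF-ESCs and OSM-ESCs. Polk, a translesion polymerase, had 0.32 and 0.45 (0.28 after rescaling), and the first of these was not past the test after rescaling (0.16, adjusted p = 0.0844 in limma) or without LIF replicate 1 (0.25, adjusted p = 0.0580). Xpc, which recognises bulky lesions, had -0.37 and -0.45.

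Of 10 further targets in apoptosis, LIF-ESCs had 4 higher and 2 lower, and OSM-ESCs had 5 and 2. After rescaling LIF-ESCs had 3 and 4, and OSM-ESCs 5 and 4. Pmaip1, which encodes the BH3-only protein Noxa, rose by 0.51 and 0.59 on the log2 scale in LIF-ESCs and OSM-ESCs, unlike Bbc3. Fas, a death receptor, had log2 fold changes of 0.71 and 0.98 at 1.65 TPM in -LIF-ESCs, and the first was lost without -LIF replicate 1 (adjusted p = 0.0975) or LIF replicate 1 (adjusted p = 0.0997). Ei24, a protein of the endoplasmic reticulum, rose by 0.59 in LIF-ESCs and by 0.44 in OSM-ESCs. Pidd1, a scaffold that activates caspase-2, rose by 0.53 in OSM-ESCs and was not past the test without -LIF replicate 2 (0.44, adjusted p = 0.0698) or OSM replicate 1 (0.47, adjusted p = 0.0709). The death receptor gene Tnfrsf10b fell by 0.60 and 0.48 and Perp, a desmosome protein, fell by 0.58 and 0.43.

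Of 8 inhibitors of p53, 5 were higher and 2 lower with either cytokine. Sirt1, a deacetylase of p53, had log2 fold changes of 1.47 and 1.30, Mdm4, the partner of Mdm2, 0.99 and 0.91, and Rchy1, a ubiquitin ligase, 0.96 and 0.99. The inhibitors that fell were Ppp1r13l, the gene of iASPP (-0.77 and -0.74), and Ppm1d, the gene of the phosphatase Wip1 (-0.56 and -0.58). Of 13 activators and cofactors, LIF-ESCs had 8 higher and 4 lower, and OSM-ESCs had 8 and 3. After rescaling, 4 inhibitors were higher and 2 lower in both groups, and of the activators LIF-ESCs had 8 and 4, and OSM-ESCs 6 and 4.

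Among the activators, the acetyltransferase gene Crebbp had log2 fold changes of 1.02 and 0.99 in LIF-ESCs and OSM-ESCs, and Prkdc, the catalytic subunit of DNA-PK, had 0.97 and 0.99. The damage kinase gene Atm rose by 0.87 in LIF-ESCs and 0.90 in OSM-ESCs, and the kinase gene Hipk2 by 0.86 and 1.10. Trp53bp2, the gene of ASPP2, fell by 0.68 and 0.60 and the checkpoint kinase gene Chek2 by 0.34 and 0.40. Cdkn2a, which encodes p16 and the Mdm2 inhibitor Arf, fell by 0.52 in LIF-ESCs and was not past the test without -LIF replicate 1 (-0.47, adjusted p = 0.0561). Trp53bp1, the gene of 53BP1, fell by 0.27 in LIF-ESCs and by 0.21 in OSM-ESCs, both past the test. The value in OSM-ESCs was not past the test without -LIF replicate 2 (-0.19), while after rescaling it was at -0.38.

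Of the p53 family, Trp73 was at 1.80 TPM in -LIF-ESCs, 0.914 TPM in LIF-ESCs and 0.925 TPM in OSM-ESCs, with log2 fold changes of -0.55 (adjusted p = 0.0160 in limma) and -0.54 (adjusted p = 0.0168). With a pseudocount of 0.1 these values were -0.90 and -0.89, and with voom -1.12 and -1.09. The calls were lost without -LIF replicate 1 (0.0644 and 0.0673), and also without LIF replicate 1 (0.0657) or without OSM replicate 1 (0.0579) or 2 (0.0524). Trp63 was under the limit of 1 TPM and was not tested. In the comparison of the cytokines with each other, 1 of the 45 further pathway genes tested passed an adjusted p under 0.05 in limma, Ddit4, with a log2 fold change of -0.31 (adjusted p = 0.0494). This call was lost without any 1 of the 6 libraries, with adjusted p-values of 0.118 to 0.274.

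**Figure D4:**
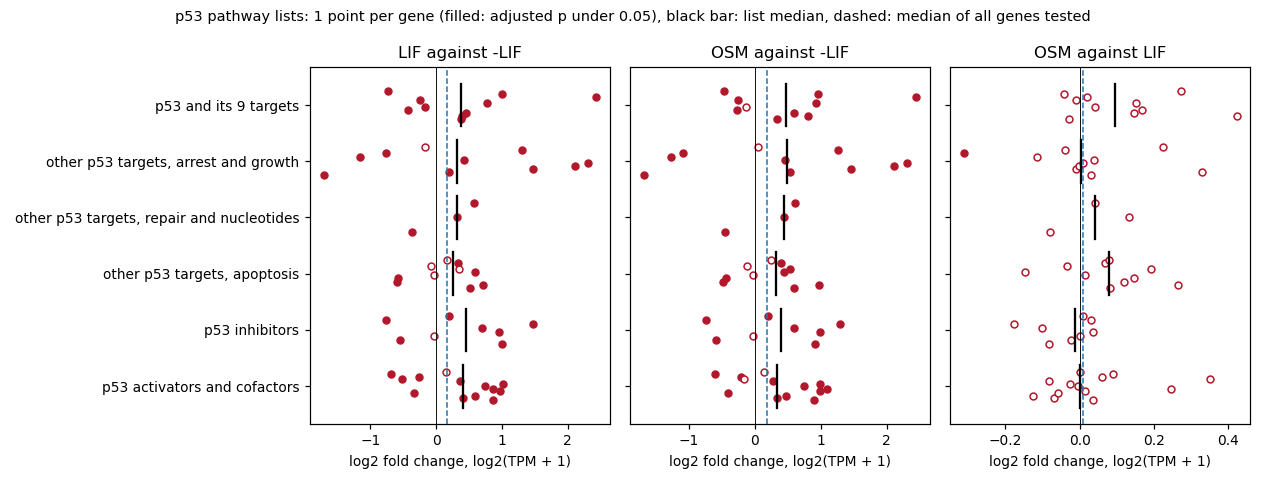
Log2 fold change on the log2(TPM + 1) scale (x axis, with a range of its own in each panel) of each gene in the p53 pathway lists, filled where the adjusted p was under 0.05 in limma. Black bars are list medians and the dashed line is the median of all genes tested. Against -LIF-ESCs each list shown holds genes on both sides of 0, from Btg2 at -1.71 to Sesn2 at 2.43 with LIF, and between the cytokines 1 point, Ddit4 at -0.31, is filled.

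Genes with a like pattern were sought by the Euclidean distance between log2(TPM + 1) profiles over the 6 libraries, each centred on its own mean, among 13584 genes with a symbol of their own. Nearest to Trp53 were Rnf44, Elf2 and Slc25a25, at distances of 0.0184, 0.0301 and 0.0411 on the log2 scale. Rnf44 was at 96.4 TPM in -LIF-ESCs, 124 TPM in LIF-ESCs and 122 TPM in OSM-ESCs. Nearest to Cdkn1a were Tmem176b, Snhg18 and Pdgfa, at distances of 0.115, 0.117 and 0.128. Pdgfa was at 25.2, 32.4 and 42.1 TPM in the 3 groups.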

How the data were processed

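The 6 libraries (2 per group) were grouped by the treatment label. Per the labels, reads were trimmed with Trimmomatic, mapped to mm10 with HISAT2 and counted per gene with featureCounts, and the authors deposited TPM values. The annotation, the strand setting and the step to TPM are not given in the sources used here. The extraction note of the labels names ovaries, while every other label names embryonic stem cells. The authors tested counts with DESeq2, which was not run here. As the deposited unit is TPM, log2(TPM + 1) was fitted with limma 3.58.1 in R 4.3.3 (eBayes with a trend) over the 18556 genes that reached 1 TPM in 2 or more libraries, all 3 groups together, which left 3 residual degrees of freedom (5.3 once the prior is added), and p-values were adjusted by Benjamini-Hochberg. Fold changes on this scale are understated for genes of low TPM. The smallest two-sided exact permutation p with 2 libraries against 2 is 0.333, so the p-values rest on this model. They measure the spread between these libraries. The paper describes the 2 libraries of a group as biological replicates. It does not say how separately they were grown, so the spread may still be technical.

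Reads were recovered as TPM × exon length (GENCODE M21, GRCm38) divided by 1 step per library. Of 28584 symbols, 28405 (99.4%) were found once, and 95.4% of their values were whole within 0.02 of a read. Those of Cdkn1a were not and are approximate. Replicates differed by more than sampling noise, the chi-square per gene averaging 2.03 to 3.49.

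The genes and lists were chosen with earlier results of these data known. From each list other than the 10 genes and the markers, the text names up to 3 genes highest and 3 lowest among those past an adjusted p of 0.05 against -LIF-ESCs, and every one past it between OSM-ESCs and LIF-ESCs. The nearest patterns are the 3 genes nearest to Trp53 and to Cdkn1a. The results were recomputed with a pseudocount of 0.1, without the filter on low values, with a limit of 5 TPM, with no trend in eBayes, from the compared groups alone, with the replicate number as a block, after median-ratio rescaling, by voom on the recovered reads, and without each library in turn. Scripts ran in Python 3.11.15 (pandas 2.3.3, with matplotlib 3.10.9 for plots).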

Additional observations from a re-analysis of the deposited data

Results flagged for a closer look

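In the direct test between the cytokines, Ddit4, an inhibitor of mTORC1, was just past the threshold. Its log2 fold change between OSM-ESCs and LIF-ESCs was -0.31 (limma, adjusted p = 0.0494), with 240 TPM in OSM-ESCs against 298 TPM in LIF-ESCs and 509 TPM in -LIF-ESCs. The call was lost in 11 of 14 alternatives, every library left out among them, with adjusted p-values up to 0.274.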

How the results depend on the processing

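Against -LIF-ESCs all 10 genes kept their direction in each of the 14 alternatives in both cytokine groups, and 8 of the 10 also kept their side of the threshold, the exceptions being Bbc3 and Trp53inp1. No filter, the limit of 5 TPM, no trend, only the groups compared and the replicate block cannot change a log2 fold change. Nor can leaving out a library of the third group, so the direction could change only in the other alternatives. The count past the test was 8 to 10 in both comparisons. In the main fit 42.2% of all genes tested were higher and 25.9% lower with LIF, and 42.9% and 25.4% with OSM. Nothing particular to the 10 genes is read from these counts. Between the cytokine groups, 5 of the 10 genes passed with voom on recovered reads and 0 in the other 13 alternatives. Of the further pathway genes, 1 passed in this comparison, and 0 did with a pseudocount of 0.1, no filter, no trend, only the groups compared or the replicate block, or with any 1 library left out (0 to 0), 2 with the filter of 5 TPM (Plk2, log2 fold change 0.33, and Ddit4) and 6 with voom (Plk2, Ddit4, Ei24, Usp7, Sirt1 and Hipk2). With 1 library left out, the log2 fold change between OSM-ESCs and LIF-ESCs ranged from -0.101 to 0.0802 in Trp53inp1, from -0.0196 to 0.0588 in Sesn2 and from -0.147 to 0.0615 in Eda2r, so no direction can be read there. In these fits the lone library of a group was assumed to vary like the others.

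The labels give the replicates numbers and say nothing of a shared batch. The correlation of replicate differences between groups was -0.0433 to 0.0265 across genes, so no strong shared replicate effect was seen. It cannot tell whether libraries of the same number were grown or prepared together. With the replicate block, the counts past the test were 9 in LIF-ESCs, 8 in OSM-ESCs and 0 between OSM-ESCs and LIF-ESCs. The shares of all genes under this setting were not kept, so nothing is read from these counts. The fewest recovered reads of the 10 genes in a library were 897. Between OSM-ESCs and LIF-ESCs the standard error from counting alone was 0.0431 in Bbc3 and 0.0353 in Phlda3, beside fitted ones of 0.0495 and 0.0420. In the other genes it was further below the fitted one, with 0.0172 beside 0.0659 in Cdkn1a and 0.019 beside 0.0778 in Trp53inp1.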
